A study of Homo sapiens with 12 samples.

Results

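The aminoacyl-tRNA synthetase genes were followed in KYSE150 and KYSE510, established human lines of esophageal squamous cell carcinoma, with and without silencing of the long non-coding RNA gene HCP5. A written list of 35 enzyme genes, 19 for cytosolic and 16 for mitochondrial enzymes, was matched by symbol to the 38516 genes of the deposited table, and all 35 were found. RNA sequencing covered 4 groups of 3 libraries: KYSE150 control, KYSE150 HCP5-silenced, KYSE510 control and KYSE510 HCP5-silenced. All cells were grown in RPMI-1640 with 10% fetal bovine serum, and total RNA was sequenced. Each line is a single cell line, the silencing agent is not described in the labels, and the titles of all libraries, controls included, begin with "sh". Nothing in the labels says that the replicates were separate cultures, so p-values measure the spread between these libraries, which may be technical.

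Aminoacyl-tRNA synthetases join each amino acid to its matching tRNA, the step that makes the genetic code readable to the ribosome. Animal cells keep a cytosolic and a mitochondrial set, both encoded in the nucleus, and GARS and KARS each give the enzyme of both compartments. Several cytosolic enzymes sit in a multisynthetase complex held together by the scaffold proteins AIMP1, AIMP2 and EEF1E1. When amino acids run short, uncharged tRNA activates the kinase GCN2 (EIF2AK4), translation of the transcription factor ATF4 increases, and many cytosolic synthetase genes are known ATF4 targets. MYC, a driver of biosynthesis, is also known to act on genes of this kind.

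RefSeq promoter windows (GRCh38.p14, from 250 bases before to 50 bases after each transcript start) were matched for 30 of the 35 genes, with no entry for DARS, LARS, YARS, AARS2 and VARS2. The ATF4 element, searched as TGATGNAAN on both strands, was found in 7 of 16 matched cytosolic genes and in 1 of 14 matched mitochondrial genes. It was in 8 of the family's 39 windows (20.5%), against 3.61% of the 35116 windows in the table. The matches are shown because later results are given by this group of genes. Each line gives 30 bases, 5′ to 3′ on the gene's strand, with the match in capitals. A match on the other strand reads as the reverse complement.
AARS: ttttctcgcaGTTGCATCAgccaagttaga
CARS: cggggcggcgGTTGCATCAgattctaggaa
GARS: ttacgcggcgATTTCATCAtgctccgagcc
IARS: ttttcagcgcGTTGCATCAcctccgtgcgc
MARS: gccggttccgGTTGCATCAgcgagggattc
NARS: ctacgctctcTGATGCAACgccggaatcgc
TARS: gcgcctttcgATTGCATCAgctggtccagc
YARS2: tccacactgcTGATGGAAAaattaagttta

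These windows lie at chr16:70289675-70289704 (AARS, minus strand), chr11:3057407-3057436 (CARS, minus), chr7:30594834-30594863 (GARS, plus), chr9:92293692-92293721 (IARS, minus), chr12:57488053-57488082 (MARS, plus), chr18:57621803-57621832 (NARS, minus), chr5:33440956-33440985 (TARS, plus) and chr12:32756075-32756104 (YARS2, minus). AARS, CARS, IARS and MARS carry the same 9 letters, GTTGCATCA, and NARS carries their reverse complement. The match begins within 34 bases of the start site in CARS, GARS, IARS, MARS, NARS and TARS, and at -188 in AARS and -197 in YARS2. The E-box CACGTG, the word bound by MYC with MAX, was found in IARS, CARS2, EARS2 and MARS2, in 5 of 39 windows (12.8%) against 7.26% of all windows. No E-box shared a base with an ATF4 element. In IARS the E-box window reads as follows, at chr9:92293866-92293895 on the minus strand.
IARS E-box: tggttcgttttcCACGTGgaggcgcaaaac

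Libraries held 20035025 to 28202422 reads assigned to genes, and in KYSE150 every silenced library was deeper than every control. The family took 0.341% to 0.531% of reads. The fewest reads behind any single value was 65, for PARS2. In KYSE150 HCP5 itself averaged 0.770 ± 0.0220 RPKM without and 0.437 ± 0.133 with silencing, and 1.39 ± 0.470 against 0.801 ± 0.257 in KYSE510 (SD, n = 3 each). It was lower in 6 of 6 same-numbered pairs, to 56.8% and 57.6% of control, but passed limma's adjusted test in neither line (adjusted p = 0.267 and 0.646). An exact two-sided permutation test gave p = 0.1 in KYSE150, the smallest the design allows, and p = 0.3 in KYSE510. All 7 squamous epithelial markers were expressed in every group. Of 18 markers of other cell types in the table, only COL1A1 and CDH5 in KYSE510 and CD68 in both lines reached 0.5 RPKM in any library. Summed fibroblast markers ran from 0.0693 to 0.901 RPKM. Summed leukocyte markers ran from 29.7 to 47.1 RPKM, nearly all of it CD68, which was thus well expressed in both lines. In bulk RNA, fewer cells with a transcript and less transcript per cell cannot be told apart.

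Synthetase genes were well expressed in both lines. The median of the family's mean levels was 15.1 RPKM (the reads of a gene per unit of exon length and per unit of library depth), against 3.47 over the 17823 genes tested, and 32 of 35 members lay above that median. All 35 passed the filter for testing. KARS, the lysyl enzyme of both compartments, was the highest by mean level, with 122.7, 117.7 and 119.1 RPKM in KYSE150 controls, 107.4, 114.2 and 103.4 in silenced KYSE150, 75.9, 78.4 and 78.2 in KYSE510 controls, and 72.1, 69.2 and 73.1 in silenced KYSE510. The 4 groups follow that order, and the silenced libraries lay below the controls in each line without overlap. PARS2, the mitochondrial prolyl enzyme, was the lowest, at 1.55, 1.35 and 1.90 RPKM, 1.46, 1.56 and 1.55, 1.52, 1.92 and 1.66, and 1.40, 1.80 and 1.40 in the same order of groups. Its 4 groups overlapped.

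Among cytosolic genes of KYSE150 controls, KARS was followed by FARSA, the catalytic subunit of the phenylalanyl enzyme (96.8 ± 19.3 RPKM, SD, n = 3), EPRS, the fused glutamyl-prolyl enzyme (85.5 ± 11.9), and RARS, the arginyl enzyme (74.6 ± 2.25). NARS, SARS and IARS2 were at 69.9 ± 10.9, 69.8 ± 10.0 and 68.4 ± 0.983, levels closer together than their spread. IARS2, the mitochondrial isoleucyl enzyme, was the only mitochondrial gene above 20 RPKM in either control group. In KYSE510 controls the order began with KARS (77.5 ± 1.40) and TARS, the threonyl enzyme (73.0 ± 5.08), whose libraries overlapped, and TARS was first by mean in silenced KYSE510 (77.9 ± 2.75). Summed over the 19 cytosolic genes, the level was 909 ± 41.8 RPKM in KYSE150 controls and 608 ± 16.1 in KYSE510 controls. The 16 mitochondrial genes summed to 178 ± 4.93 and 137 ± 7.56. Levels of single genes depend on the deposited exon length, which unites all annotated exons and was up to 5.57 times the principal transcript (CARS2). Per kilobase of principal transcript, HARS moved from 13th to 4th place over all libraries and SARS from 8th to 2nd, while KARS stayed highest and PARS2 lowest.

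**Figure D1:**
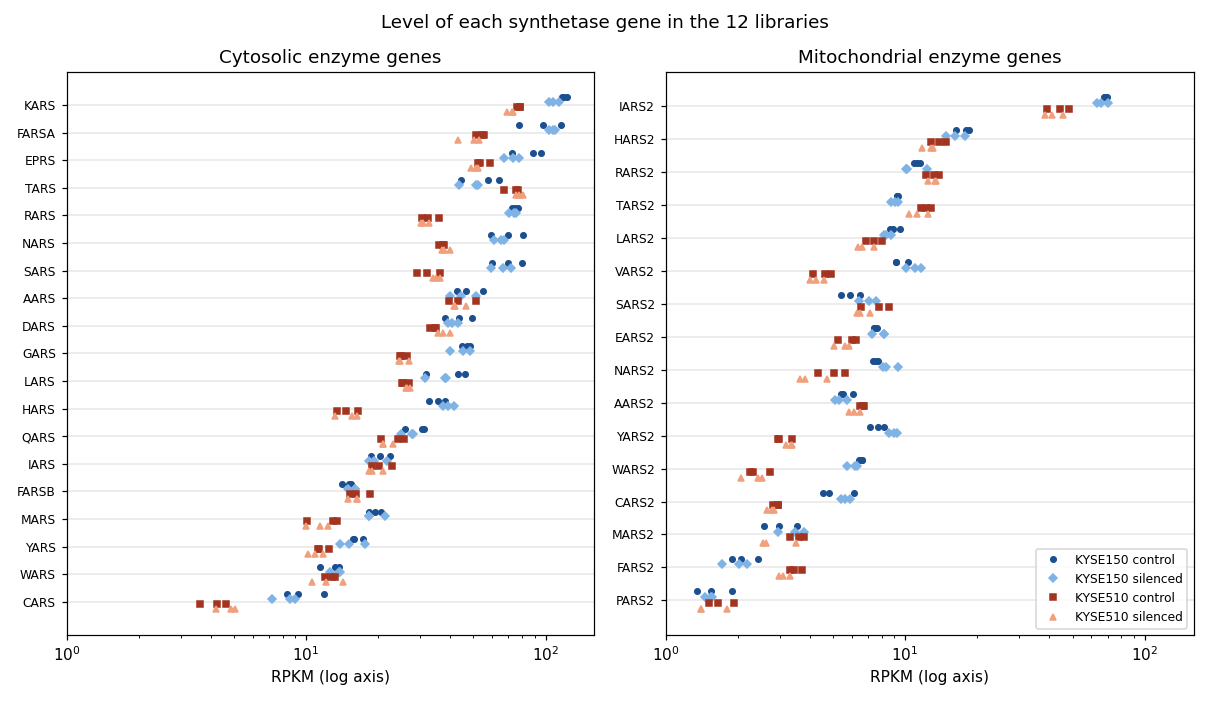
RPKM of the 35 synthetase genes in each of 12 libraries (log axis), cytosolic and mitochondrial enzymes apart, with colours for the 4 groups. Most cytosolic genes sit above most mitochondrial genes, IARS2 stands above the other mitochondrial genes, and the KYSE510 libraries lie left of the KYSE150 libraries for most genes.

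For each amino acid with both kinds of enzyme on the list, the cytosolic gene was compared with its mitochondrial partner within each library, as a ratio of RPKM. In 14 of 16 pairs the cytosolic gene was higher in every library. IARS was below IARS2 in every library, at a ratio of 0.299 ± 0.0302 in KYSE150 controls and 0.470 ± 0.0152 in KYSE510 controls (SD, n = 3). HARS and HARS2, overlapping genes on opposite strands, had a ratio of 2.02 ± 0.0496 in KYSE150 controls and 1.08 ± 0.175 in KYSE510 controls, with a lowest value of 0.966. These genes share 592 exon bases, 17.4% of those of HARS2. Whether reads were counted by strand is not given, so the genes may share reads. The widest ratios were those of EPRS over PARS2 (55.3 ± 16.4 and 32.4 ± 2.36 in the control groups) and FARSA over FARS2 (46.2 ± 13.1 and 15.4 ± 0.929). Per kilobase of principal transcript, 14 of 16 pairs were above 1 in both control groups, and the exceptions were IARS over IARS2 and, in KYSE510, CARS over CARS2 at 0.939.

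**Figure D2:**
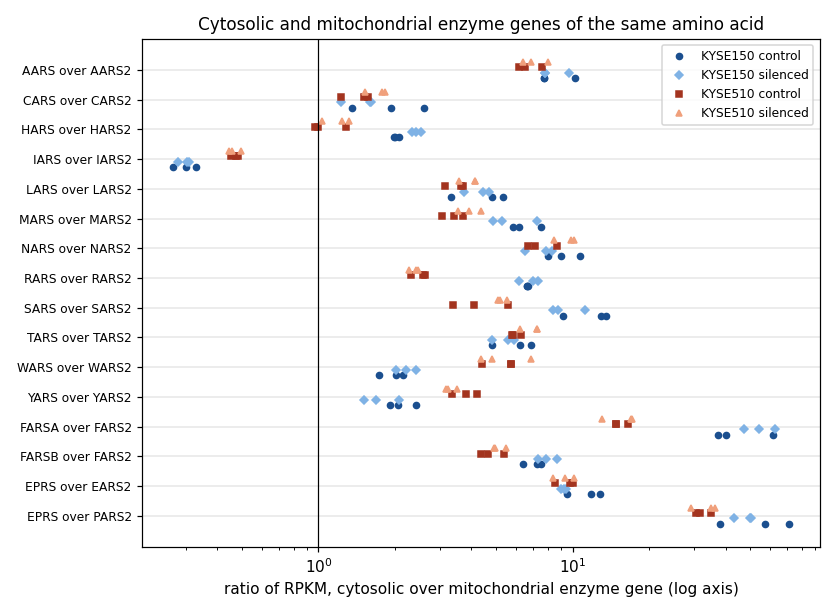
Ratio of cytosolic to mitochondrial enzyme RPKM (log axis) in each library for 16 gene pairs, with a line at a ratio of 1. IARS over IARS2 lies left of the line in every library, and RARS, SARS and FARSA pairs lie further right in KYSE150 than in KYSE510, while WARS and YARS pairs lie further left.

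Line identity separated the family more than silencing did. Between control libraries, 28 of 35 synthetase genes passed the test (limma on log2(RPKM + 0.5), Benjamini-Hochberg adjusted p under 0.05), 23 of them lower in KYSE510 and 5 higher. The lines are distant as a whole: 62% of all genes tested passed, 28.3% higher and 33.7% lower in KYSE510. The family's median difference, KYSE510 minus KYSE150, was -0.46 on the log2 scale, beside -0.07 for all genes tested. Of the cytosolic genes 14 of 19 were lower in KYSE510 and 1 (TARS) was higher. Of the mitochondrial genes 9 of 16 were lower and 4 (FARS2, TARS2, SARS2 and AARS2) were higher. No overlap between the 3 and 3 control libraries was seen for 29 members, 23 lower and 6 higher in KYSE510, and for 64% of all genes.

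The members most reduced in KYSE510 served different amino acids and both compartments. WARS2, the mitochondrial tryptophanyl enzyme, had 6.58, 6.63 and 6.44 RPKM in KYSE150 controls and 2.73, 2.24 and 2.32 in KYSE510 controls, a log2 difference of -1.27 (SE 0.0907, limma adjusted p = 3.33e-07). HARS, the cytosolic histidyl enzyme, had 35.5, 32.7 and 38.2 against 16.5, 13.4 and 14.7 (log2 difference -1.23, SE 0.10, limma adjusted p = 9.74e-07). YARS2, the mitochondrial tyrosyl enzyme, had 8.19, 7.15 and 7.74 against 2.94, 2.98 and 3.38 (-1.19, SE 0.0786, limma adjusted p = 1.80e-07). RARS had 72.4, 74.5 and 76.9 against 32.2, 30.5 and 35.8 (-1.18, SE 0.0713, limma adjusted p = 8.80e-08). In all 4 genes every KYSE150 library lay above every KYSE510 library. CARS (-1.13) and SARS (-1.09), the cysteinyl and seryl enzymes, also passed a log2 difference of 1 in size, which 21.1% of all genes reached with the adjusted p. HARS shares 11.3% of its exon bases with WDR55 on the opposite strand, and whether reads were counted by strand is not given in the sources used here.

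FARS2, the mitochondrial phenylalanyl enzyme, went the other way, with 2.42, 2.07 and 1.89 RPKM in KYSE150 controls and 3.31, 3.45 and 3.73 in KYSE510 controls (log2 difference 0.61, SE 0.103, limma adjusted p = 0.000329). TARS had 57.4, 63.9 and 44.5 against 76.8, 74.9 and 67.2 (0.41, SE 0.123, limma adjusted p = 0.0122). Its mitochondrial partner TARS2 had 9.21, 9.35 and 9.26 against 12.2, 12.8 and 11.7 (0.38, SE 0.0763, limma adjusted p = 0.00106). Both threonyl genes were thus higher in KYSE510, and neither overlapped between the control groups. SARS2, the mitochondrial seryl enzyme, had 5.42, 5.91 and 6.50 against 6.55, 7.79 and 8.58 (0.33, SE 0.108, limma adjusted p = 0.0191), while its cytosolic partner SARS was lower in KYSE510. The SARS2 call did not hold without KYSE150 control replicate 1, KYSE510 control replicate 2 or KYSE510 control replicate 3 (limma adjusted p = 0.0777, 0.0553 and 0.0841), nor with the 6 control libraries fitted alone (0.0544). SARS2 also shares 46.2% of its exon bases with CTC-360G5.8 on the same strand, so its reads may be split or shared with that gene.

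**Figure D3:**
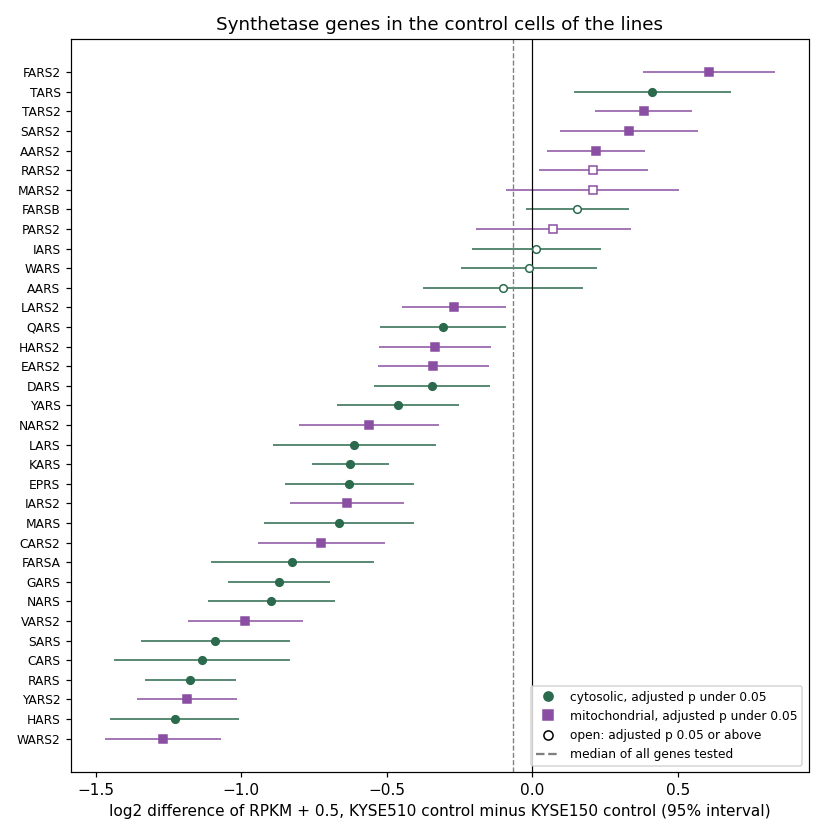
Log2 difference of KYSE510 minus KYSE150 controls for each synthetase gene on the log2(RPKM + 0.5) scale, with 95% intervals from limma, circles for cytosolic and squares for mitochondrial enzymes, filled where the adjusted threshold was passed, and a dashed line at the median of all genes. WARS2, HARS, YARS2 and RARS lie furthest below 0 and FARS2 furthest above.

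Within the multisynthetase complex, 7 of 8 enzymes were lower in KYSE510: EPRS (-0.63), KARS (-0.63), LARS (-0.61), MARS (-0.66), QARS (-0.31), RARS and DARS (-0.35). IARS, the isoleucyl enzyme, had a difference of 0.01 (95% interval -0.21 to 0.24). Of its scaffolds, AIMP1 (-0.41) and AIMP2 (-0.26) were lower as well, and EEF1E1 was higher (0.49). Outside the complex, NARS (-0.90), GARS (-0.87), FARSA (-0.82) and YARS (-0.46) were lower. FARSB, the second subunit of the phenylalanyl enzyme, did not pass (0.15, 95% interval -0.02 to 0.33). Other members that did not pass were AARS (-0.10), WARS (-0.01), PARS2 (0.07), MARS2 (0.21) and RARS2 (0.21). By structural class, and beside 28.3% higher and 33.7% lower over all genes, 14 of 18 class I genes passed, all lower in KYSE510, while class II held 9 lower and 5 higher genes of 17. EPRS, which joins an enzyme of each class, was counted in class I only. Among the remaining mitochondrial genes VARS2 (-0.99), CARS2 (-0.72), IARS2 (-0.64), NARS2 (-0.56), EARS2 (-0.34), HARS2 (-0.33) and LARS2 (-0.27) were lower and AARS2 (0.22) was higher. VARS2 shares 22.0% of its exon bases with GTF2H4 on the same strand.

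The same order of the lines was read in the silenced libraries. Of the 23 members lower in KYSE510 controls, 22 had all 3 silenced KYSE510 libraries below all 3 silenced KYSE150 libraries, and of the 5 higher members 4 were above. The exceptions were DARS and SARS2. The shares over all genes called in the same direction were close to these, 91.1% of the lower and 81.7% of the higher ones. Silenced libraries of the lines did not overlap for 69.7% of all genes. Across all 12 libraries, 24 members had no overlap between lines, 21 lower and 3 higher in KYSE510, beside 50.9% of all genes.

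Members were also read beside their neighbours on the chromosome. For each member, the 10 tested genes on either side were read in the same contrast. The median of these 20 neighbours was -0.60 around WARS2 (chromosome 1), -0.42 around HARS (chromosome 5), -0.74 around YARS2 (chromosome 12) and -0.45 around RARS (chromosome 5). It was 0.55 around FARS2 (chromosome 6), 0.50 around TARS (chromosome 5), 0.59 around TARS2 (chromosome 1) and 0.14 around SARS2 (chromosome 19). All 8 members had the sign of their neighbours, and 6 of the 8 were further from 0 than the neighbours' median. Of the 28 members past the threshold, 25 had the sign of their neighbours, beside 72.5% of all genes called in this contrast. HARS and HARS2, and likewise EPRS and IARS2, share most of their neighbours. The exceptions were CARS, at -1.13 beside a neighbour median of 0.10, DARS and YARS. Neighbours may include genes that share exon bases with a member, as HARS2 does with HARS. Where reads are shared, such signs are not independent. Gene copy numbers were not analysed here.

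Silencing HCP5 changed no synthetase gene past the threshold. In KYSE150, 0 of 35 passed limma's test, beside 0.499% of all genes, and 3 members (EPRS, KARS and YARS2) had an unadjusted p under 0.05, against 18.1% of all genes. In KYSE510, 0 of 35 passed, beside 0.0393%, and 1 member (NARS2) had an unadjusted p under 0.05, against 6.35%. For the mean over lines 0 of 35 passed (0.539% of all genes), with 3 at an unadjusted p under 0.05 (11.5%). For the difference between lines 0 of 35 passed (0%), with 2 at an unadjusted p under 0.05 (12.2%). With the replicate number as a block, 0 of 35 passed in each contrast, beside 6.7% of all genes in KYSE150, 0.112% in KYSE510, 2.74% for the mean and 0% for the difference. Unadjusted p-values under 0.05 with the block numbered 9 in KYSE150 (30.8% of all genes), 3 in KYSE510 (13.2%), 6 for the mean (20.3%) and 7 for the difference (25.9%). limma-voom on recovered reads also called 0 members in each contrast without the block. With the block it called EPRS in KYSE150 (19% of all genes called) and in the mean (7.27%), 0 in KYSE510 (2.23%), and CARS and NARS2 in the difference (7.59%). The 95% intervals of the 35 changes lay between -0.52 and 0.46 in KYSE150 and between -0.57 and 0.46 in KYSE510 on the log2 scale.

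The largest changes in KYSE150 were those of EPRS, SARS2 and CARS. EPRS had 88.4, 95.6 and 72.4 RPKM in controls and 73.2, 77.4 and 67.0 in silenced libraries, a log2 change of -0.23 (SE 0.101). The limma adjusted p was 0.269, and the block brought it to 0.0609. Each silenced library was below the control of its number, but the groups overlapped through control replicate 3. Without that control the change was -0.34 and passed (limma adjusted p = 0.0419), as it did in limma-voom on recovered reads with the block (-0.23, adjusted p = 0.0192). Its adjusted p ranged from 0.0192 to 0.654 over the alternatives run. SARS2 had 5.42, 5.91 and 6.50 RPKM in controls and 6.4, 7.58 and 7.07 in silenced libraries (0.22, SE 0.108). CARS had 9.24, 11.8 and 8.29 against 8.61, 9.02 and 7.23 (-0.22, SE 0.137). Groups overlapped for both genes.

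In KYSE510 the largest changes were those of mitochondrial genes. MARS2, the methionyl enzyme, had 3.29, 3.62 and 3.77 RPKM in controls and 2.55, 2.62 and 3.49 in silenced libraries (-0.27, SE 0.135). NARS2, the asparaginyl enzyme, had 4.34, 5.6 and 5.04 against 3.65, 4.72 and 3.81 (-0.27, SE 0.109), at a limma adjusted p of 0.724 that the block brought to 0.195. SARS2 had 6.55, 7.79 and 8.58 against 7.13, 6.32 and 6.49 (-0.18, SE 0.108). In NARS2 and MARS2 each silenced library was below the control of its number, while SARS2 was lower in only 2 of 3.

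Most of these changes, none past the threshold, were below 0: 24 of 35 in KYSE150, beside 33.9% of all genes, 26 in KYSE510, beside 56.8%, and 25 for the mean over lines, beside 40.9%. The family's median change was -0.05 in KYSE150 and -0.08 in KYSE510, against medians of 0.08 and -0.02 for all genes. Centring each library on its median moved the all-gene median in KYSE150 from 0.08 to -0.05, and 28 members then lay below 0, beside 58.9% of all genes. With quantile normalization it was 27 members beside 50.7% of all genes. All 8 enzymes of the multisynthetase complex were below 0 in KYSE150, from -0.23 to -0.004, and 6 of 8 in KYSE510. EPRS, KARS, RARS, HARS2 and LARS2 were lower in 6 of 6 same-numbered pairs, 5 of 35 members beside 2.77% of all genes. Higher in 6 of 6 pairs were 0 members, beside 6.7% of all genes. LARS and TARS were lower in 3 of 3 pairs of KYSE150 and higher in 3 of 3 of KYSE510 (2.4% of all genes), and MARS2 and NARS2 the reverse (7.79%). KARS had a log2 change of -0.15 in KYSE150 and a mean change over lines of -0.13 (SE 0.0430, limma adjusted p = 0.255). Groups did not overlap in KYSE150 for KARS and WARS2 (lower) and YARS2 and NARS2 (higher), 4 of 35 beside 19.2% of all genes. In KYSE510 this held for KARS, EPRS and FARS2 (lower) and DARS (higher), 4 of 35 beside 12.1%.

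**Figure D4:**
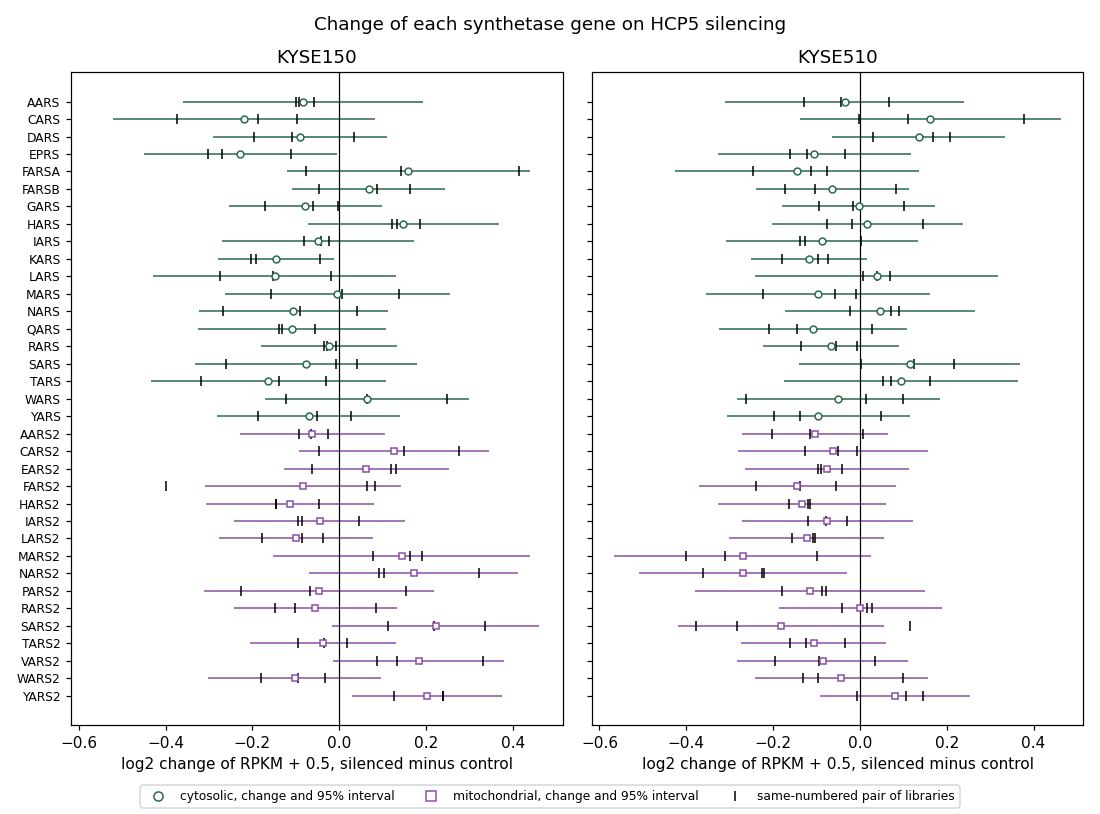
Log2 change with HCP5 silencing for each synthetase gene in KYSE150 and KYSE510 on the log2(RPKM + 0.5) scale, drawn as circles (cytosolic) and squares (mitochondrial) with 95% intervals from limma, and ticks for the 3 same-numbered pairs. Changes lie between -0.23 and 0.22 in KYSE150 and between -0.27 and 0.16 in KYSE510, and none passes the adjusted threshold.

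Replicates of KYSE150 differed in a way that many cytosolic members shared. TARS had 57.4, 63.9 and 44.5 RPKM in control replicates 1 to 3 and 52.1, 51.2 and 43.5 in silenced ones. LARS, the leucyl enzyme, had 42.9, 46.3 and 31.7, and 38.6, 38.1 and 31.3. In both genes the library numbered 3 was the lowest of each group. This held in both groups for 10 of 19 cytosolic genes (AARS, CARS, DARS, EPRS, GARS, IARS, LARS, NARS, SARS and TARS) and 0 of 16 mitochondrial genes, beside 10.2% of all genes. The opposite, the library numbered 3 highest in both groups, held for 4 cytosolic genes (FARSA, HARS, QARS and RARS) and 4 mitochondrial genes (CARS2, HARS2, MARS2 and RARS2), beside 35.4% of all genes. FARSA had 97.4, 77.2 and 115.8 RPKM in controls. On the log2 scale, replicate 3 minus the mean of replicates 1 and 2 had a median of -0.10 in controls and -0.12 in silenced libraries over the cytosolic genes. The median was 0.05 and 0.04 over the mitochondrial genes, and 0.12 and 0.08 over all genes tested. In KYSE510 the library numbered 3 was lowest in both groups for AARS, SARS, TARS, EARS2, LARS2 and TARS2. The share of all genes with that order in KYSE510 was not counted. In KYSE510 controls and silenced libraries the median offset was -0.03 and 0.01 over the cytosolic genes. It was 0.03 and -0.05 over the mitochondrial genes, and 0.08 and 0.03 over all genes tested.

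Genes printed above with an ATF4 element were among those lowest in replicate 3 of both KYSE150 groups: 6 of the 7 cytosolic ones (AARS, CARS, GARS, IARS, NARS and TARS). Among cytosolic genes whose window held no match it was 2 of 9 (EPRS and SARS), and of the 3 without a window it was DARS and LARS. YARS2, the mitochondrial gene with the element, did not show the order. Over all 8 genes with the element, the median offset of replicate 3 was -0.22 in controls and -0.19 in silenced libraries, and -0.06 and 0.004 in the KYSE510 groups. In KYSE150, ATF4 itself had 150.1, 182.9 and 121.1 RPKM without silencing and 138.7, 136.2 and 95.8 with it, lowest in replicate 3 of each. ATF4 was lowest in replicate 3 of both KYSE510 groups as well. It had 182.3, 164.7 and 138.6 RPKM in KYSE510 controls and 170.1, 176.0 and 164.7 in silenced KYSE510. The order of ATF4 was thus not particular to KYSE150. Of the 28 tested genes on a list of the ATF4 response, 9 were lowest in replicate 3 of both KYSE150 groups. The median offset of the list was, however, 0.06 in KYSE150 controls, with 12 of 28 below 0, and -0.19 in silenced KYSE150 libraries. The groups of genes were compared after the order had been seen, replicates have no labelled order, and the part of a culture, extraction or library step was not tested.

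**Figure D5:**
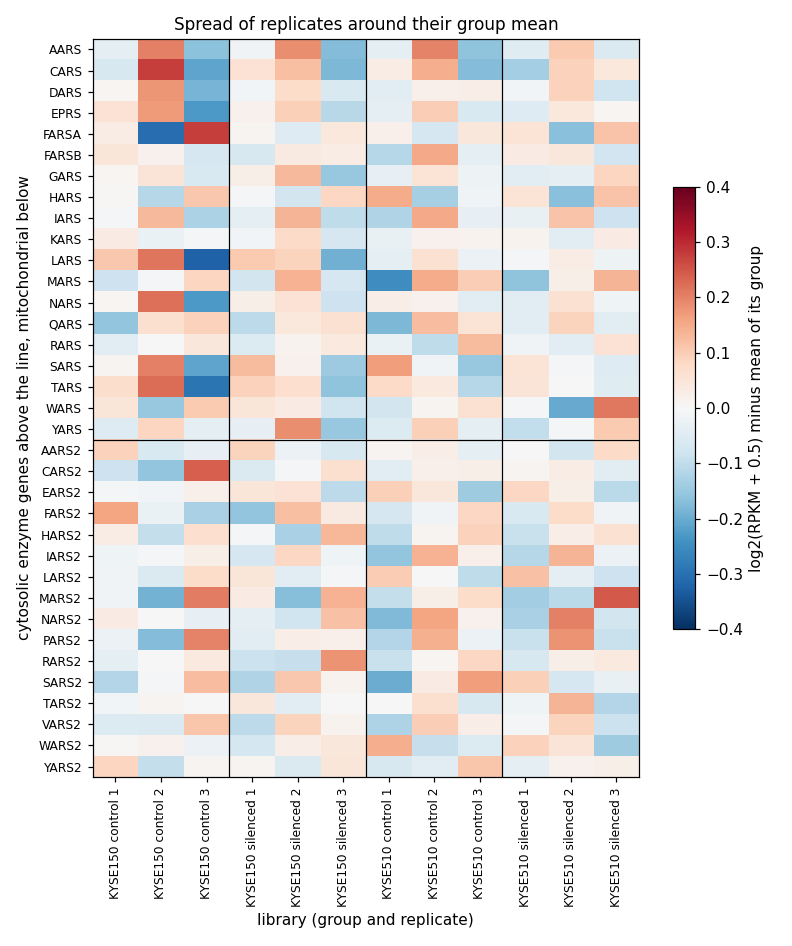
Heat map of each library (columns) minus the mean of its group on the log2(RPKM + 0.5) scale for the 35 genes (rows), red above and blue below the mean. In KYSE150 the libraries numbered 3 lie below 0 for TARS, LARS, NARS and other cytosolic genes in both the control and the silenced group.

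Genes that work beside the synthetases were read from written lists. Under silencing 0 genes passed limma's test without the block on any of these lists: complex scaffolds (3 tested), other aminoacyl-tRNA factors (15), elongation factors (8), ATF4 response (28), kinases, initiation factors and their regulators in the amino acid response (10) and interferon-gamma response (9). Unadjusted p-values under 0.05 numbered 1, 4, 3, 7, 2 and 0 in KYSE150, beside 18.1% of all genes, and 0, 0, 0, 4, 0 and 0 in KYSE510, beside 6.35%. With the block, 4 ATF4 response genes rose in KYSE150, PYCR1 (0.69), TRIB3 (0.60), SESN2 (0.47) and DDIT4 (0.41), with limma adjusted p from 0.0234 to 0.0478, beside 5.04% of all genes that rose in that fit. AIMP1 (-0.35), the elongation factor genes EEF1B2 (-0.34) and EEF1G (-0.33), and EIF2S2 (-0.24) fell with the block, beside 1.66% of all genes. The 8 members with an ATF4 element had 7 changes below 0 in KYSE150, and 0 passed with or without the block.

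Between control lines the lists held genes of both directions, to be read beside the 28.3% higher and 33.7% lower over all genes. Of the 28 ATF4 response genes 15 were higher in KYSE510, led by PYCR1 (3.14) and NUPR1 (2.70), and 9 were lower, led by ATF3 (-2.12) and PSPH (-1.40). The 8 members with an ATF4 element held 5 lower and 1 higher gene in the same contrast. Other aminoacyl-tRNA factors held 6 lower genes of 15, led by TRNT1 (-1.01), which adds the CCA end of tRNA, and ELAC2 (-0.81), which trims the tRNA tail, and 2 higher, LAGE3 (0.95) and TARSL2 (0.92). Of the 8 genes on the written list of elongation factors and related genes, 5 were lower, led by GFM2 (-0.89) and TSFM (-0.40), and EEF1B2 was higher. The list of kinases, initiation factors and their regulators held 4 higher genes of 10, led by PPP1R15B (0.76) and IMPACT (0.56). Its 4 lower genes were led by PPP1R15A (-2.01) and EIF2AK4 (-0.90). WARS, the cytosolic tryptophanyl enzyme and a known interferon-gamma target, had 13.2, 11.5 and 13.8 RPKM in KYSE150 controls and 12.03, 12.8 and 13.3 in KYSE510 controls. Of 9 tested interferon-gamma response genes 7 were higher in KYSE510, led by GBP1 (4.01) and PSMB9 (2.27), and NLRC5 was lower (-0.51), while WARS overlapped between lines (-0.01, 95% interval -0.25 to 0.22).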

How the data were processed

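RNA-seq values were used as deposited: 12 columns of RPKM with exon positions and summed exon length per gene, per the file headers. Processing tools named in the submitters' processing notes are HISAT2 and DESeq, with build GRCh38. Versions, strand use and filters are not given in the sources used here. Values multiplied by length were whole multiples of a single step in each library (100% of values, tolerance 0.01 reads), so reads per gene were recovered for an alternative fit. The 17823 genes that reached 0.5 RPKM in 3 or more libraries were fitted on log2(RPKM + 0.5), a scale that understates changes of low genes, with limma 3.58.1 in R 4.3.3: 4 group means over 12 libraries, eBayes with trend, two-sided, Benjamini-Hochberg adjustment over all genes tested, threshold 0.05. The fit was tested on simulated data whose libraries were independent and whose added changes were larger than any silencing change of a member. That simulation does not show whether changes as small as those of the members would be found. Gene positions and exon overlaps come from the deposited exon positions, and principal transcripts from GENCODE 29.

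Members and gene lists were chosen with earlier results of these data known. Members given by library were the 3 with the largest change in each line, the 4 most different in each direction between control lines without overlap, the highest and lowest by level, and any past a silencing threshold. TARS, LARS, FARSA and WARS are also given by library for the replicate and interferon paragraphs, chosen after their values were seen. Related genes are named if past the threshold, up to 2 per direction and list between lines. Replicate numbers come from the titles. Deviations of same-numbered control and silenced libraries correlated at 0.147 to 0.415 and of other-numbered ones at -0.385 to 0.184. The numbers were taken to pair libraries, which the labels do not state and these values do not establish. The ranges overlap: control replicate 2 of KYSE150 correlated at 0.184 with silenced replicate 1 and at 0.147 with silenced replicate 2. Deviations within a group sum to 0, so the correlations are not independent. Alternatives covered pseudocount, filter, scaling, variance model, voom, libraries fitted, replicate block and leaving out each library. A search for words in the proteins was not run.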

Additional observations from a re-analysis of the deposited data

Results flagged for a closer look

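In 4 members every same-numbered pair moved one way with silencing in KYSE150 and the other way in KYSE510. LARS and TARS were lower in 3 of 3 pairs of KYSE150 and higher in 3 of 3 of KYSE510, with a difference in log2 change (KYSE510 minus KYSE150) of 0.19 and 0.26. MARS2 and NARS2 were higher in KYSE150 and lower in KYSE510, with differences of -0.41 and -0.44. The first order was seen in 2 of 35 members, beside 2.4% of all genes tested. The second was seen in 2 of 35 members, beside 7.79%, so it was no more common in the family than over all genes. The difference passed limma's test in none of the 4 genes (adjusted p = 0.625 for LARS, 0.50 for TARS, 0.410 for MARS2 and 0.394 for NARS2, and 0.217, 0.156, 0.122 and 0.117 with the replicate block). In limma-voom on recovered reads with the block NARS2 passed, as did 7.59% of all genes. MARS2 rests on few reads, 160 in the library with fewest.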

How the results depend on the processing

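Between control lines, the number of members past the threshold ranged from 25, with the 6 control libraries fitted alone, to 29, and from 26 to 29 when each library was left out in turn. Differences of the 8 members named there kept their direction in all alternatives, and SARS2 alone lost its call in some. For silencing, the replicate block left the count at 0 of 35 in each contrast, although it raised the count over all genes in KYSE150 from 89 to 1194. limma-voom with the block gave 1 member in KYSE150, 1 in the mean over lines and 2 in the difference between lines. Leaving out each library gave 0 to 1 members in KYSE150, the 1 being EPRS without control replicate 3, and 0 in the other silencing contrasts. The all-gene count in KYSE150 ranged from 15 to 1287 over the left-out libraries, the highest without that replicate. No named change reversed. Scaling moved the difference between lines most: its all-gene median went from -0.12 to 0.04 when libraries were centred, and members below 0 went from 22 to 6 (12 with quantile normalization). Depth limits the lowest genes, PARS2 and FARS2, whose lowest values rest on 65 and 100 reads. The intervals of the silencing changes rest on 3 libraries a group. The spread of each gene was estimated over all 12 libraries, so a gene has the same SE in both lines.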
